A study of Mus musculus with 4 samples.

Results

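The genes described here encode the proteasome and the proteins that build and regulate it. They are the 50 protein-coding genes, of 23552 genes in the deposited table, whose symbol in GENCODE M21 starts with Psma to Psmg followed by a number. They comprise 7 constitutive alpha and 7 constitutive beta subunits of the 20S core, 3 immune beta subunits, the testis-type subunit Psma8, the thymic subunit Psmb11, 6 ATPase and 11 non-ATPase subunits of the 19S cap, 7 assembly chaperones, and 6 activators and inhibitors. The symbol pattern also takes in Psmc3ip, a meiotic recombination factor that is no proteasome subunit, so 49 of the 50 genes belong to the pathway.

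RNA-Seq had been performed on c-Kit+ leukemic cells enriched from the bone marrow of moribund C57BL/6 mice with acute myeloid leukemia (AML) induced by the fusion oncogene MLL-AF9. Both groups carried MLL-AF9 and an eGFP vector. The control cells overexpressed eGFP alone (2 libraries, replicates 3 and 4), and the SUV-OE cells overexpressed the H3K9 methyltransferase Suv39h1 together with eGFP (2 libraries, replicates 2 and 3). Suv39h1 came from a viral vector and not from its own locus, the leukemia grew in sublethally irradiated recipients that kept blood cells of their own, and the study's methods name young adult female mice. The number of mice behind a library was not given in the sources used here. The p-values therefore measure the spread between these libraries, which may be technical.

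The proteasome is the main protease for proteins tagged with ubiquitin. In the 20S core, rings of alpha subunits guard a chamber whose beta subunits Psmb5, Psmb6 and Psmb7 do the cutting, and the 19S cap binds ubiquitin chains, unfolds the substrate with its ring of ATPases and feeds it in. Interferon induces Psmb8, Psmb9 and Psmb10, which replace the constitutive catalytic subunits in newly built cores and shape the peptides shown on MHC class I. Blood cells, leukemic cells included, carry both kinds of core.

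Before the values, the sequence just upstream of 4 catalytic subunits is shown, because the results turn on constitutive against immune subunits. The sequences are from RefSeq (build GRCm38.p6), run 5′ to 3′ on the strand of the gene, and end at the base before the RefSeq start of transcription. For the constitutive subunit Psmb5 (chr14:54617996-54618145, minus strand) and for Psmb6 (chr11:70525207-70525356, plus strand), the capitals mark the core of an antioxidant response element, TGACNNNGC, the motif bound by NRF1, the factor that drives proteasome genes when proteasome activity is short. For the immune subunit Psmb8 (chr17:34198045-34198194, plus strand), they mark the letters of a gamma-activated site, TTCNNNGAA, a motif known from genes that interferon gamma induces. For Psmb9 (chr17:34187331-34187480, minus strand), they mark an E2F site, TTTGGCGC, and a CCAAT box, both read on the opposite strand.
Psmb5: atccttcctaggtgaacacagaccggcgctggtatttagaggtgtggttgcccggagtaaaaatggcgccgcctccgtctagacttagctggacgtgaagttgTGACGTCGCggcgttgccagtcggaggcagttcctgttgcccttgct
Psmb6: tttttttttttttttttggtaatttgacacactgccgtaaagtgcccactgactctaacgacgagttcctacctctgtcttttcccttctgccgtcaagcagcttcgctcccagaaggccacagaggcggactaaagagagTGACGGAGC
Psmb8: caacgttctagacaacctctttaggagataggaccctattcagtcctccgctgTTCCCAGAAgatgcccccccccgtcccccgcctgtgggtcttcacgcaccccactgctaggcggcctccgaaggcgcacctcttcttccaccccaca
Psmb9: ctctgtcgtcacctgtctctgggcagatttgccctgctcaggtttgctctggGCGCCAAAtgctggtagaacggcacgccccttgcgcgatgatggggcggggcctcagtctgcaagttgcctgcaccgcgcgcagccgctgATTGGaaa

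RefSeq promoter windows of 300 bases, from 250 before to 50 after a start, were matched for 42 of the 50 genes, 3 of which had more than 1 window. A gene was counted when any of its windows held a motif, here and over all 27025 genes with a window. Searched on both strands, the antioxidant response element core was found for 6 of the 42 genes (14.3%, against 13.99% of all genes), namely Psmb5, Psmb6, Psmc6, Psmd9, Psmd12 and Psme4. The core of the interferon-stimulated response element, GAAANNGAA, was found for 7 (16.7%, against 9.76%), none of them an immune subunit. The gamma-activated site was found for 3 (7.14%, against 9.55%), Psmb8, Psmd2 and Psmg1. The ETS site GGAAGT was found for 20 (47.6%, against 26.5%), 9 of them among the 14 genes of the 19S cap with a window and 0 among the 3 immune subunits. The CCAAT box was found for 15 (35.7%, against 41.1%) and the E-box CACGTG for 4 (9.52%, against 8.09%). The E2F site was found for 2 genes in its form TTTCCCGC (4.76%, against 1.24%), Psmc2 and Psmc4, and for Psmb9 alone in its form TTTGGCGC (2.38%, against 0.585%). These are matches of letters and not measured binding sites.

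Expression was given as FPKM, that is, fragments mapped to a gene, scaled by its exon length and by the depth of the library. Each gene was compared on the log2(FPKM + 1) scale with limma, with Benjamini-Hochberg adjustment over the 13736 genes that had a mean FPKM of at least 0.5. The adjusted p-values below are from that fit unless limma-voom is named, the log2 fold changes are SUV-OE minus control, and they understate the change of genes with low FPKM. A gene counted as a DEG when that adjusted p-value was under 0.05 and the log2 fold change was 1 or more in size. The reads recovered from the FPKM steps numbered 19910519 to 23359149 a library. The recovered divisors for depth were smaller, at 19453058 and 16873770 in control replicates 3 and 4 and 17745309 and 17778673 in SUV-OE replicates 2 and 3. Limma-voom below scales by the recovered reads and not by these divisors. Suv39h1, the overexpressed gene, measured 12.4 FPKM in either control library against 75.3 and 81.2 in SUV-OE (log2 fold change 2.56, adjusted p = 0.00866), so the labels and the transgene went together. Kit, the marker used to enrich the cells, was at 20.4 and 19.2 FPKM in control against 28.6 and 25.4 in SUV-OE (log2 fold change 0.43, limma adjusted p = 0.160), so the SUV-OE pair lay above the control pair, and its part in the values below was not tested.

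Of the 50 genes, 49 passed the filter on low values. The exception was Psmb11, the subunit of cortical thymic epithelium, with 0, 4, 2 and 0 reads in control replicates 3 and 4 and SUV-OE replicates 2 and 3. At those depths 3 reads of this gene correspond to an FPKM of 0.0361 to 0.0417, so Psmb11 was at or near the floor throughout. The other 49 genes were expressed in all 4 libraries, with mean FPKM from 2.58 (Psmg3) to 191.6 (Psma2). Together they made up 0.829% and 0.836% of the summed FPKM in control replicates 3 and 4, and 0.681% and 0.711% in SUV-OE replicates 2 and 3. The share of the summed FPKM was thus lower in both SUV-OE libraries than in either control library.

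The direction within the pathway was uneven. All 31 constitutive subunits of the 20S core and the 19S cap had negative log2 fold changes, from -0.70 to -0.17 with a median of -0.43. The 3 immune subunits had positive ones, from 0.07 to 0.38. Most activators lay close to 0, and the testis-type subunit stood far below all others. Of the 49 genes, 1 was a DEG, Psma8, which was lower in SUV-OE, where 0.408% of all tested genes were DEGs in that direction. At an unadjusted limma p-value under 0.05, 21 of the 49, Psmc3ip among them, were lower (10.4% of all tested genes) and 1 was higher (10.3% of all tested genes). Both SUV-OE libraries lay below both control libraries for 34 of the 49 (28.4% of all tested genes) and above for 1, Psmb9 (25.4% of all tested genes). The median over the 49 genes was -0.37, beside -0.02 over all tested genes, of which 53.0% had a negative log2 fold change. No constitutive subunit passed the adjusted threshold, and their adjusted p-values ran from 0.103 to 0.704. In bulk RNA, fewer cells of a type and less RNA per cell cannot be told apart, and this holds for every value given here. The summed FPKM of 11 neutrophil markers went with the groups as well, from 755 and 2395 in control to 6666 and 8113 in SUV-OE, and its part in the values of the subunits, constitutive or immune, was not tested.

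**Figure D1:**
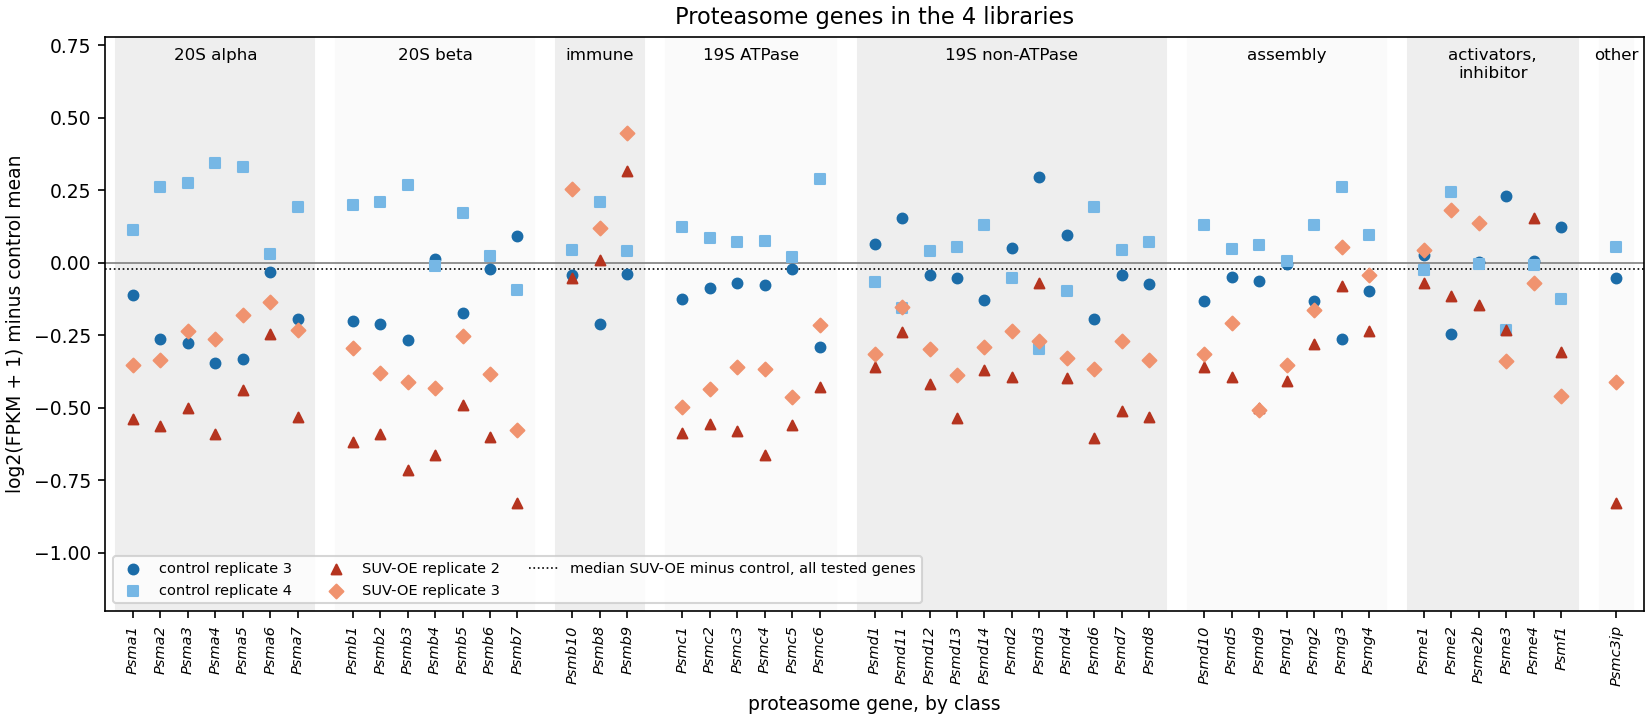
Each of 48 genes of the symbol pattern, Psmc3ip included (x axis, grouped by class; Psma8 and Psmb11 are not drawn) in the 4 libraries, as log2(FPKM + 1) minus the mean of the 2 control libraries (y axis); circles and squares are control replicates 3 and 4, triangles and diamonds SUV-OE replicates 2 and 3, and the dotted line is the median difference over all tested genes (-0.02). The SUV-OE points lie below 0 for all 31 constitutive 20S and 19S subunits, and above both control points for Psmb9.

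The background itself varied with level. Of the 1183 tested genes with a mean FPKM of 50 or more, 77.2% had a negative log2 fold change and the median was -0.20, and the 24 proteasome genes among them had a median of -0.44. Of the 1993 genes with a mean FPKM from 20 to 50, the median was -0.14, beside -0.35 for the 16 proteasome genes. Of the 5856 genes with a mean FPKM from 0.5 to 5, 39.4% had a negative log2 fold change and the median was 0.09. Highly expressed genes in general thus had lower FPKM in SUV-OE, and the proteasome genes lay further down than their band. Whether level had a part in the values of the members was not tested.

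The constitutive beta subunits differed in the same direction throughout. For all 7, both SUV-OE libraries lay below both control libraries (28.4% of all tested genes), and the median log2 fold change was -0.49, or -0.30 without control replicate 4. Psmb7, the trypsin-like subunit (chromosome 2, 38588036 to 38644087 in mm10), had the lowest value among the constitutive subunits, with FPKM values of 33.2 and 29.0 (control replicates 3 and 4) against 17.0 and 20.5 (SUV-OE replicates 2 and 3). The groups did not overlap, and the fold change on the log2 scale came to -0.70 (standard error 0.15; limma, adjusted p = 0.103). Of the exon bases of Psmb7, 11.8% also belong to Nek6 on the opposite strand, and without strand the reads of such bases cannot be told apart. Psmb4, a structural subunit, was at 118.1 and 116.1 FPKM in control against 73.6 and 86.5 in SUV-OE (log2 fold change -0.55, limma adjusted p = 0.148). Psmb6, the caspase-like subunit, had 70.2 and 72.4 against 46.7 and 54.5 (log2 fold change -0.49, limma adjusted p = 0.155). In these 3 genes the control libraries were closer to each other than to either SUV-OE library.

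Psmb5, the chymotrypsin-like subunit and the main target of bortezomib, was at 67.1 and 85.4 FPKM in control against 53.6 and 63.4 in SUV-OE. The groups did not overlap, but the log2 fold change (-0.37, limma adjusted p = 0.316) was little larger than the gap within the control pair (0.34 on the same scale). Psmb1, the beta subunit with the highest level, had 185.0 and 244.5 against 138.2 and 173.2 (log2 fold change -0.46, limma adjusted p = 0.318). Its value was -0.66 to -0.26 with 1 library left out.

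The constitutive alpha subunits had a median log2 fold change of -0.38, with groups that did not overlap for 4 of 7, all lower in SUV-OE (28.4% of all tested genes). Control replicate 4 was higher than control replicate 3 in all 7, by a median of 0.52 on the log2 scale, and for 5 of the 7 that gap within the control pair was larger than the difference between the groups. Psma1 was the only alpha subunit with an unadjusted p-value under 0.05, at 104.2 and 121.9 FPKM in control against 77.3 and 88.0 in SUV-OE (log2 fold change -0.45, limma adjusted p = 0.212). Psma2, with the highest mean level of all 50 genes, had 182.5 and 262.5 against 148.0 and 173.3 (log2 fold change -0.45, limma adjusted p = 0.352), groups that did not overlap. Psma3, with the lowest level of the class, had 36.8 and 54.5 against 31.4 and 37.9, so its groups overlapped. The median of the class was -0.16 without control replicate 4 and -0.64 without control replicate 3, so that the size of the alpha difference depended on which control library was used.

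In the 19S cap, the groups did not overlap for 14 of 17 genes, each of them lower in SUV-OE, where 28.4% of all tested genes had that order. Its 6 ATPases, which unfold the substrate, had a median log2 fold change of -0.50, and 5 of them had an unadjusted limma p-value under 0.05. Over the whole cap, 12 of 17 genes did, beside 10.4% of all tested genes that were lower at that p-value. Psmc1 was at 136.7 and 162.6 FPKM in control against 98.9 and 105.3 in SUV-OE (log2 fold change -0.54, standard error 0.16, limma adjusted p = 0.164). Psmc5 had 96.1 and 98.8 against 65.7 and 70.5 (log2 fold change -0.51, standard error 0.12, limma adjusted p = 0.134). In both, the groups were further apart than the libraries within each group. Psmc2, Psmc3 and Psmc4 had log2 fold changes of -0.50, -0.47 and -0.51, and their groups did not overlap either. Psmc6 was the ATPase whose groups overlapped, at 71.8 and 107.8 in control against 65.1 and 75.8 in SUV-OE.

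The 11 non-ATPase subunits, which hold the ubiquitin receptors, the deubiquitinase Psmd14 and the scaffold of the lid, had a median log2 fold change of -0.36. Of these, 7 had an unadjusted limma p-value under 0.05, namely Psmd1, Psmd4, Psmd6, Psmd7, Psmd8, Psmd12 and Psmd13 (10.4% of all tested genes were lower at that p-value). Psmd4, a ubiquitin receptor, was at 49.7 and 43.4 FPKM in control against 35.0 and 36.8 in SUV-OE (log2 fold change -0.36, limma adjusted p = 0.213). Psmd13, a lid subunit, had 41.2 and 44.4 against 29.2 and 32.5 (log2 fold change -0.46, limma adjusted p = 0.149), with 10.1% of its exon bases shared with Sirt3 on the opposite strand. Psmd6 had the most negative value of the class in the fit of all 4 libraries (-0.49). With 1 library left out its value was -0.68 to -0.29, and that of Psmd13 was -0.54 to -0.39. Psmd7 had the highest level, with 98.4 and 104.5 in control against 70.8 and 83.9 in SUV-OE. Psmd3 and Psmd11 were the subunits whose groups overlapped, with log2 fold changes of -0.17 and -0.20.

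The immune subunits had log2 fold changes of 0.07 to 0.38, where the catalytic genes they replace had -0.70 to -0.37. Psmb9 (chromosome 17, 34181987 to 34187764) had FPKM values of 21.05 and 22.30 (control replicates 3 and 4) against 27.2 and 29.9 (SUV-OE replicates 2 and 3). The SUV-OE pair lay wholly above the control pair, by 1.32-fold on the means. On the log2 scale that came to 0.38 (standard error 0.12, limma adjusted p = 0.177) and did not pass the adjusted threshold. Psmb8 had 36.6 and 49.3 in control against 42.8 and 46.3 in SUV-OE, and Psmb10 had 63.1 and 67.1 against 62.7 and 77.9. The groups of Psmb8 and Psmb10 overlapped (log2 fold changes 0.07 and 0.10, limma adjusted p = 0.861 and 0.738). Without control replicate 3 the value of Psmb8 was -0.15, and without SUV-OE replicate 3 that of Psmb10 was -0.05, so these 2 genes had no stable direction. Psmb8 shares 14.7% of its exon bases with an antisense gene, and Psmb9 shares 5.79% with Tap1, its neighbour on the opposite strand.

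The ratio of each immune subunit to its constitutive counterpart is taken within a library and does not depend on a factor by which the whole library is scaled. The ratio of Psmb8 to Psmb5 was 0.545 and 0.577 in control against 0.799 and 0.730 in SUV-OE. The ratio of Psmb9 to Psmb6 was 0.2998 and 0.3079 in control against 0.582 and 0.550 in SUV-OE. The ratio of Psmb10 to Psmb7 was 1.90 and 2.31 in control against 3.680 and 3.798 in SUV-OE. For all 3 pairs both SUV-OE ratios lay above both control ratios, by 0.44, 0.90 and 0.84 on the log2 scale of the mean log ratios, where the standard deviation within a group was at most 0.20 (n = 2). An exact two-sided permutation test of 2 against 2 libraries cannot give a p-value below 0.333, so it could not pass 0.05, and no other test of these ratios was run. As a share of the pair, Psmb9 was 23.1% and 23.5% in control against 36.8% and 35.5% in SUV-OE.

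**Figure D2:**
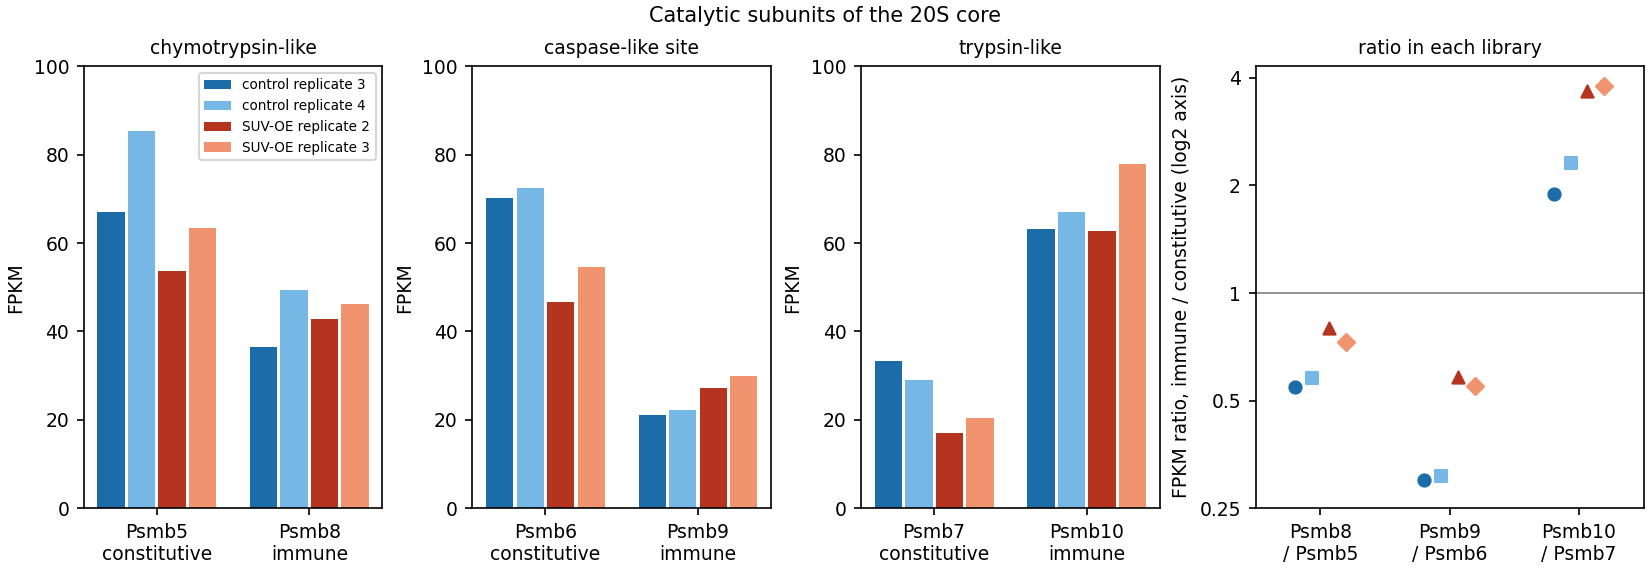
FPKM of the 3 constitutive catalytic subunits and their immune counterparts in the 4 libraries (bars, 1 library each, first 3 panels), and the ratio of immune to constitutive FPKM in each library on a log2 axis (right panel). The SUV-OE ratios lie above the control ratios in all 3 pairs, and the constitutive bars are lower in SUV-OE while Psmb9 alone of the immune subunits is higher in both SUV-OE libraries.

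The activators of the core are caps other than 19S. Psme1 and Psme2, the interferon-inducible activator subunits, had log2 fold changes of -0.01 and 0.03 with overlapping groups. Psme1 was at 67.3 and 64.8 FPKM in control against 62.9 and 68.1 in SUV-OE. Psme2 had 58.7 and 82.8 against 64.4 and 79.2, and its copy Psme2b 11.98 and 11.90 against 10.7 and 13.2. Psme2 and Psme2b are near copies, since 52.0% of the 100-base words of Psme2b also occur in Psme2, so their split is uncertain. The nuclear activator Psme3 had 82.3 and 59.5 against 59.4 and 55.1 (log2 fold change -0.29, limma adjusted p = 0.452), and the large activator Psme4 12.2 and 12.1 against 13.6 and 11.5. The inhibitor Psmf1, the member of this class with an unadjusted limma p-value under 0.05, had 6.89 and 5.63 in control against 4.84 and 4.26 in SUV-OE (log2 fold change -0.38, adjusted p = 0.239). Taken as a group, the 5 interferon-inducible genes Psmb8, Psmb9, Psmb10, Psme1 and Psme2 had a median log2 fold change of 0.07, where the 31 constitutive subunits had -0.43.

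The assembly chaperones, which build the alpha ring and the base and then leave, had a median log2 fold change of -0.30, and the groups did not overlap for 5 of 7, all lower in SUV-OE (28.4% of all tested genes). Psmd9, a chaperone of the base, was at 6.96 and 7.66 FPKM in control against 4.87 and 4.84 in SUV-OE (log2 fold change -0.50, standard error 0.12, limma adjusted p = 0.125). The libraries of each group were close together and the groups apart, but 25.5% of the exon bases of Psmd9 belong also to Gm26745 on the opposite strand. Psmg1, a chaperone of the alpha ring, had 40.1 and 40.4 against 30.1 and 31.3 (log2 fold change -0.38, standard error 0.11, limma adjusted p = 0.163). Psmg4, with the highest level of the class, had 42.5 and 48.7 against 38.5 and 44.2, and Psmg3, with the lowest, 1.97 and 3.28 against 2.38 and 2.70. The groups of Psmg3 and Psmg4 overlapped, and their signs changed with the scaling of the libraries. Psmc3ip, the recombination factor that is no subunit, had 21.3 and 23.1 against 12.1 and 16.5 (log2 fold change -0.62, limma adjusted p = 0.160). Of its exon bases 21.2% are shared with Mlx on the opposite strand.

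Psma8 (ENSMUSG00000036743, chromosome 18, 14706151 to 14762301, plus strand) was the only proteasome gene past both thresholds. It encodes the alpha subunit that replaces Psma7 in the proteasome of male germ cells, and is normally restricted to the testis. Psma8 had FPKM values of 8.96 and 9.77 (control replicates 3 and 4) against 0.366 and 0.698 (SUV-OE replicates 2 and 3). These values rest on 295, 279, 11 and 21 reads, with exact Poisson 95% intervals of 262 to 331, 247 to 314, 5.49 to 19.7 and 13.0 to 32.1 reads that cover counting error only. The control libraries were close together, both SUV-OE libraries were low, and the mean FPKM was 17.6-fold lower in SUV-OE. The fitted value of -2.77 on the log2 scale (standard error 0.16, limma adjusted p = 0.0146) was the 5th most negative of all tested genes, and it was -4.06 on the recovered reads with limma-voom (adjusted p = 0.00263). With 1 library left out the log2 fold change was -2.92 to -2.61, but the adjusted p-value was 0.108 to 0.186, and limma called no gene of the table a DEG in any of these 4 fits, where 1166 to 3877 genes had an unadjusted p-value under 0.05. No 100-base word of Psma8 occurs in another gene, and it shares no exon base with one.

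Psma7, the constitutive paralog of Psma8, was at 73.1 and 95.9 FPKM in control against 57.6 and 71.2 in SUV-OE (log2 fold change -0.38, limma adjusted p = 0.349). The ratio of Psma8 to Psma7 was 0.123 and 0.102 in control against 0.00635 and 0.00980 in SUV-OE. Thus Psma8 came to 10.9% and 9.24% of the pair in control and to 0.631% and 0.971% in SUV-OE. The neighbours of Psma8 within 500 kb on either side were looked at after its value was seen. Taf4b, 20944 bases away, was at 3.48 and 2.87 FPKM in control against 2.13 and 2.02 in SUV-OE (log2 fold change -0.44, limma adjusted p = 0.1997). Ss18, 23237 bases away on the other side, had 29.8 and 28.4 against 26.7 and 29.8 (log2 fold change -0.04), and Kctd1 6.94 and 4.77 against 4.68 and 4.75 (log2 fold change -0.24). None of these neighbours passed the adjusted threshold. Among other meiotic and germline genes, 22 of 32 listed were in the table and 9 were tested, with 2 DEGs in opposite directions: Xlr, at 34.8 and 43.1 against 1.96 and 2.96 (log2 fold change -3.54, adjusted p = 0.0145), and Tdrd9, at 0.408 and 0.580 against 9.70 and 16.7 (log2 fold change 3.20, adjusted p = 0.0260). Tdrd9 had a control mean under the filter on low values, so that it passed through SUV-OE and had to be higher there. Its direction therefore cannot be set against that of Xlr. The 9 tested genes had a median of 0.06, with 3 lower and 6 higher, Tdrd9 among the latter, so the list as a whole had no common direction. Mnd1, the partner of Psmc3ip in recombination, was at 15.6 and 19.8 against 9.53 and 9.13 (log2 fold change -0.85, limma adjusted p = 0.0829), and was singled out after its value was seen.

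**Figure D3:**
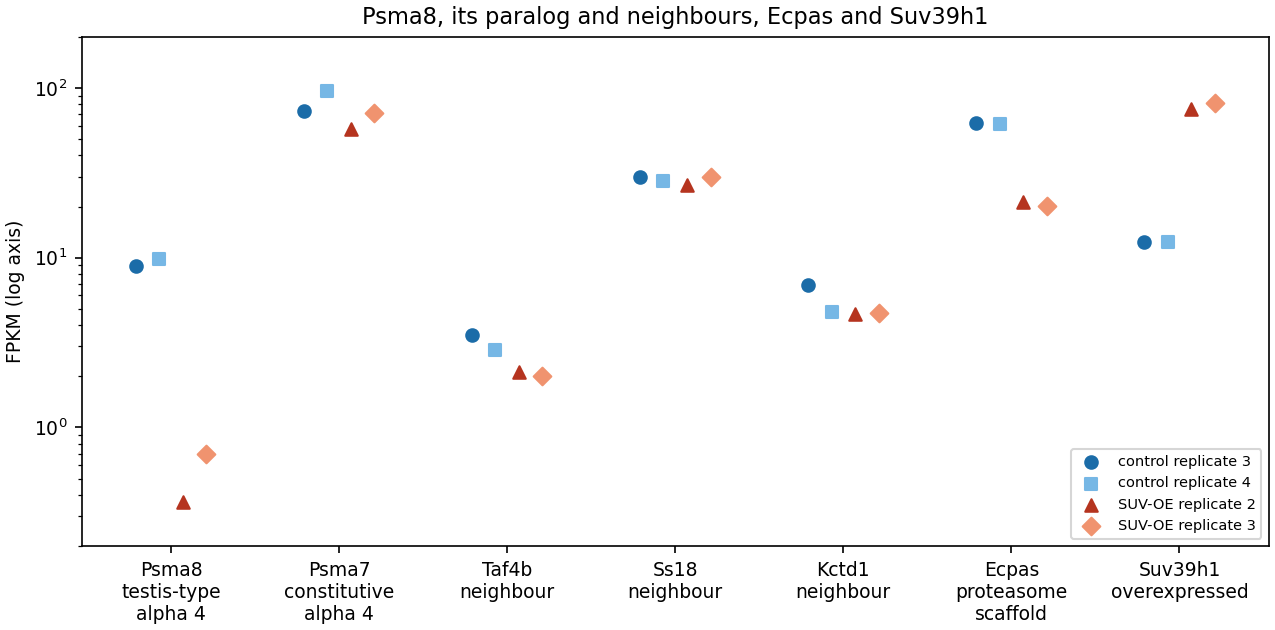
FPKM on a log axis (y axis) in the 4 libraries (points, 1 library each) for Psma8, its paralog Psma7, 3 neighbours of Psma8 on chromosome 18, the proteasome scaffold Ecpas and the overexpressed gene Suv39h1. Psma8 drops from 8.96 and 9.77 in control to 0.366 and 0.698 in SUV-OE and Ecpas from 62.2 and 61.2 to 21.4 and 20.1, whereas Psma7 and the neighbours stay within a narrower range.

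Proteins that work with the proteasome without a Psm symbol were read from a list of 11 genes in the table. Of these, 10 had negative log2 fold changes (53.0% of all tested genes). The groups did not overlap for 6, all of them lower in SUV-OE (28.4% of all tested genes), and the median was -0.30, or -0.16 without SUV-OE replicate 2. The list held 1 DEG, lower in SUV-OE (0.408% of all tested genes). It was Ecpas (ENSMUSG00000050812, chromosome 4, 58798911 to 58912749, minus strand), the scaffold also called Ecm29, which ties the 19S cap to the core and tethers proteasomes to other structures. Ecpas had FPKM values of 62.2 and 61.2 (control replicates 3 and 4) against 21.4 and 20.1 (SUV-OE replicates 2 and 3), from 13841, 11826, 4347 and 4081 reads. The libraries within each group were almost equal and the groups were 2.98-fold apart on the means (log2 fold change -1.53, standard error 0.11, limma adjusted p = 0.0217). Left out 1 library at a time, the log2 fold change was -1.57 to -1.48 with adjusted p-values of 0.113 to 0.247. Pomp, the maturation factor of the beta ring, had 26.9 and 33.6 against 19.16 and 21.99 (log2 fold change -0.53, limma adjusted p = 0.173), close to the values of the beta subunits. Adrm1, a ubiquitin receptor of the cap, had 26.4 and 17.9 against 17.2 and 17.7 (log2 fold change -0.30, limma adjusted p = 0.456), and control replicate 3 carried that difference, since without it the value was -0.032.

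The route by which cells are known to restore proteasome gene expression had no common direction. Its genes, 8 of which were tested, had a median log2 fold change of 0.01, with 5 higher and 3 lower. Nfe2l1, the gene of NRF1, was at 26.4 and 23.4 FPKM in control against 27.7 and 25.4 in SUV-OE (log2 fold change 0.09, limma adjusted p = 0.717). Nfe2l2, the gene of NRF2, had 11.06 and 14.004 against 15.4 and 17.6 (log2 fold change 0.37, limma adjusted p = 0.269). With 1 library left out, the value of Nfe2l1 was 0.0052 to 0.17 and that of Nfe2l2 was 0.22 to 0.53. The COP9 signalosome, a complex built like the 19S lid, had negative log2 fold changes for all 9 of its genes, from -0.50 to -0.23, with a median of -0.37 and 6 of 9 at an unadjusted limma p-value under 0.05 (10.4% of all tested genes). Ubiquitin and E1 genes had a median of -0.26 (5 of 6 lower), and shuttle and unfolding factors -0.21 (7 of 10 lower), and neither list held a DEG. Without control replicate 3 these medians were -0.17 and -0.058, and without control replicate 4 that of the ubiquitin and E1 genes was -0.49, so their size rested on the control library used.

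Genes that share their inducer or their task with the immune subunits lay mostly on the positive side. Of 11 genes of MHC class I peptide loading, 10 had positive log2 fold changes, with a median of 0.37, where 53.0% of all tested genes had negative ones. At an unadjusted limma p-value under 0.05, 4 were higher (10.3% of all tested genes), and limma called none a DEG. The median was 0.15 without control replicate 3 and 0.19 without SUV-OE replicate 3. Nlrc5, the transactivator of MHC class I genes, which was singled out after its values were seen, had 0.854 and 0.806 FPKM in control against 1.95 and 3.71 in SUV-OE. On the log2 scale this came to 1.03 (limma adjusted p = 0.139), and with limma-voom on the recovered reads it was 1.79 (adjusted p = 0.0268), past both thresholds. Tap1, the peptide transporter next to Psmb9, was at 18.3 and 17.6 FPKM in control against 22.2 and 26.9 in SUV-OE (log2 fold change 0.43, limma adjusted p = 0.188). Its partner Tap2 had 45.0 and 41.1 against 44.7 and 39.4 (log2 fold change -0.03), and B2m, the light chain of MHC class I, 482.6 and 802.1 against 710.8 and 1112 (log2 fold change 0.51, limma adjusted p = 0.498, and 0.15 to 0.88 on the log2 scale with 1 library left out). Tap1 thus had groups that did not overlap, and Tap2 and B2m did not.

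Of 15 tested genes of interferon signalling, 13 had positive log2 fold changes, with a median of 0.42, where 53.0% of all tested genes had negative ones. For 12 of the 15 the SUV-OE pair lay wholly above the control pair (25.4% of all tested genes). Of the 15 genes, 2 were DEGs, both higher in SUV-OE (112 of all 13736 tested genes). They were Irf8, a factor of myeloid and lymphoid development, at 5.22 and 5.01 against 11.63 and 11.04 (log2 fold change 1.01, limma adjusted p = 0.0405), and Cd74, the MHC class II chaperone, at 1.35 and 1.39 against 3.96 and 4.91 (log2 fold change 1.19, limma adjusted p = 0.0488). The adjusted p-value of Irf8 was 0.0504 with equal FPKM sums, and that of Cd74 was 0.0524 with a pseudocount of 0.1 and 0.0633 with quantile normalization, so these calls were lost there. Irf1, which drives immune subunits after interferon, had 9.24 and 11.2 against 13.6 and 17.8 (log2 fold change 0.57, limma adjusted p = 0.184).

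**Figure D4:**
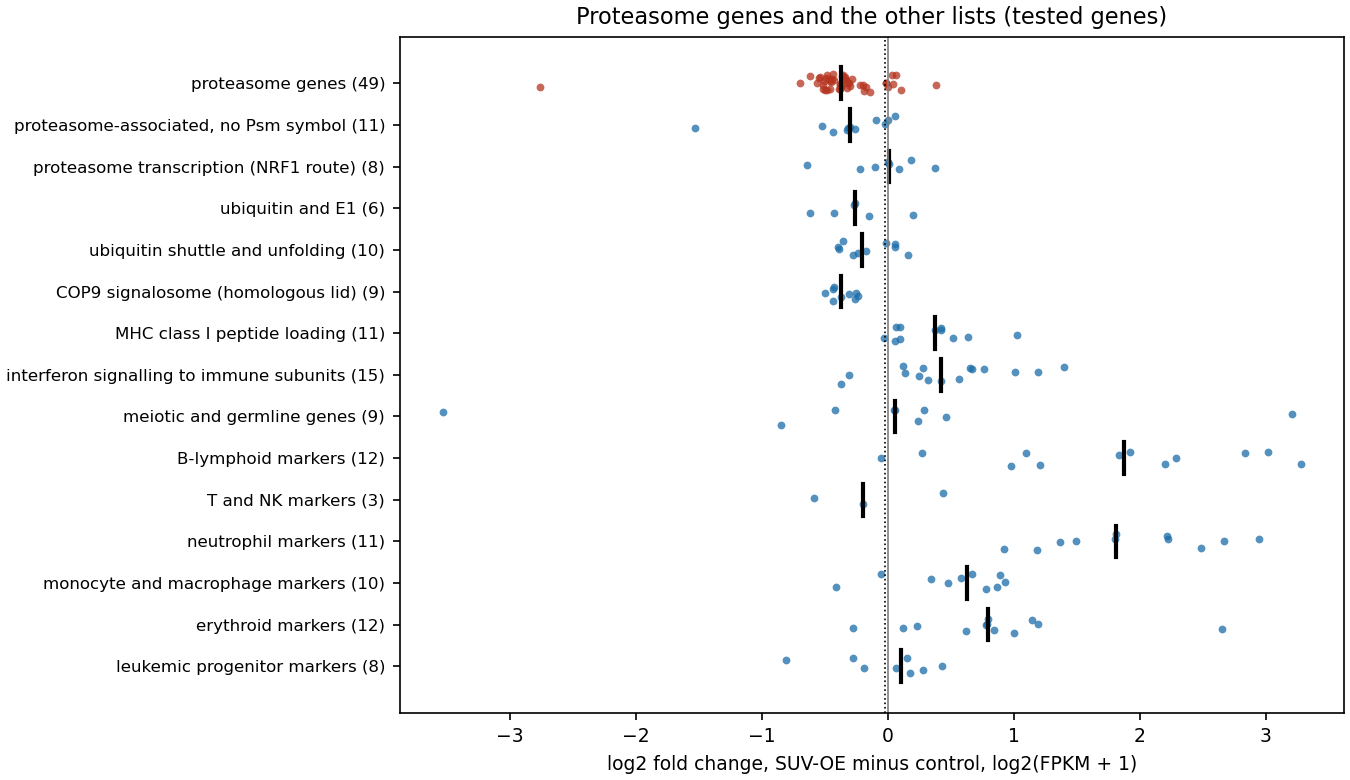
Log2 fold changes on the log2(FPKM + 1) scale (x axis) of the 49 tested genes of the symbol pattern (labelled proteasome genes, Psmc3ip included) and of the other lists (rows, with the number of tested genes in parentheses); points are genes, thick black bars are medians and the dotted line is the median of all tested genes (-0.02). Proteasome genes and the COP9 signalosome have medians of -0.37, 13 of 15 interferon and 10 of 11 MHC class I genes lie above 0, and all 11 neutrophil markers lie above 0, with a median of 1.81. Of the 12 B-lymphoid markers drawn, 8 passed the filter on low values through SUV-OE alone.

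Markers of some other blood cells went with the group as well, while the summed levels of erythroid and of T and NK markers overlapped between the groups. All 11 neutrophil markers had positive log2 fold changes (median 1.81, or 1.28 without control replicate 3), and in control replicate 4 they were all higher than in control replicate 3. The secondary granule gene Ltf was a DEG among them, at 19.9 and 40.3 against 212 and 241 (log2 fold change 2.95, limma adjusted p = 0.0434). DEGs in that direction were 112 of all 13736 tested genes. The 14 B-lymphoid markers summed to 19.7 and 29.5 FPKM against 47.7 and 113.0. Of these 12 were tested, 8 of them with a control mean under the filter of 0.5, so that they passed through SUV-OE and had to be higher there. Among them Vpreb2, listed at 0 in both control libraries, was a DEG (1.97 and 3.28 in SUV-OE, adjusted p = 0.0480). With a pseudocount of 0.1 the limma adjusted p-values of Ltf and Vpreb2 were 0.0516 and 0.0515, and that of Vpreb2 was 0.0553 with quantile normalization, so neither call held in every fit. The 12 erythroid markers summed to 38.1 and 167.8 FPKM against 136.6 and 110.2, and 3 of them had a control mean under the filter. Their median was 0.79, or 0.21 without control replicate 3, with Car2 as a DEG (2.34 and 1.47 against 15.9 and 18.4, adjusted p = 0.0214). Of 10 tested monocyte and macrophage markers 8 were on the positive side (median 0.62), and the 12 in the table summed to 104.7 and 124.6 against 164.6 and 163.3. Of the T and NK markers, 12 were in the table, with sums of 75.6 and 115.1 against 78.6 and 85.4, nearly all of it Nkg7, 3 passed the filter, and the T cell genes Cd3e and Cd8a had an FPKM of at most 0.083 in any library. Of the 8 leukemic progenitor markers, 3 lay wholly below control and 2 wholly above (28.4% and 25.4% of all tested genes). Their log2 fold changes ran from -0.81 to 0.43, and their sums were 795.5 and 851.2 against 782.5 and 847.2. The part of these cell types in the proteasome values was not tested.

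The class medians under each way of processing were compared last. The 4 classes of constitutive subunits and the assembly chaperones had negative medians in every fit that was run, and the immune subunits a positive one, which was 0.00997 without SUV-OE replicate 3. Scaling the libraries to equal FPKM sums put the medians of the constitutive classes at -0.40 to -0.25 and that of the immune subunits at 0.21, and quantile normalization put them at -0.32 to -0.23 and at 0.28. Of the 49 tested genes, Psmc3ip included, the number lower at an unadjusted limma p-value under 0.05 was then 9 and 11 (4.42% and 9.25% of all tested genes), in place of 21 (10.4%). Without SUV-OE replicate 2 it was 1 (2.89%), without SUV-OE replicate 3 it was 4 (3.59%), and it reached 27 (12.8%) without control replicate 3. The activators had a median on either side of 0, from -0.13 to 0.10.

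**Figure D5:**
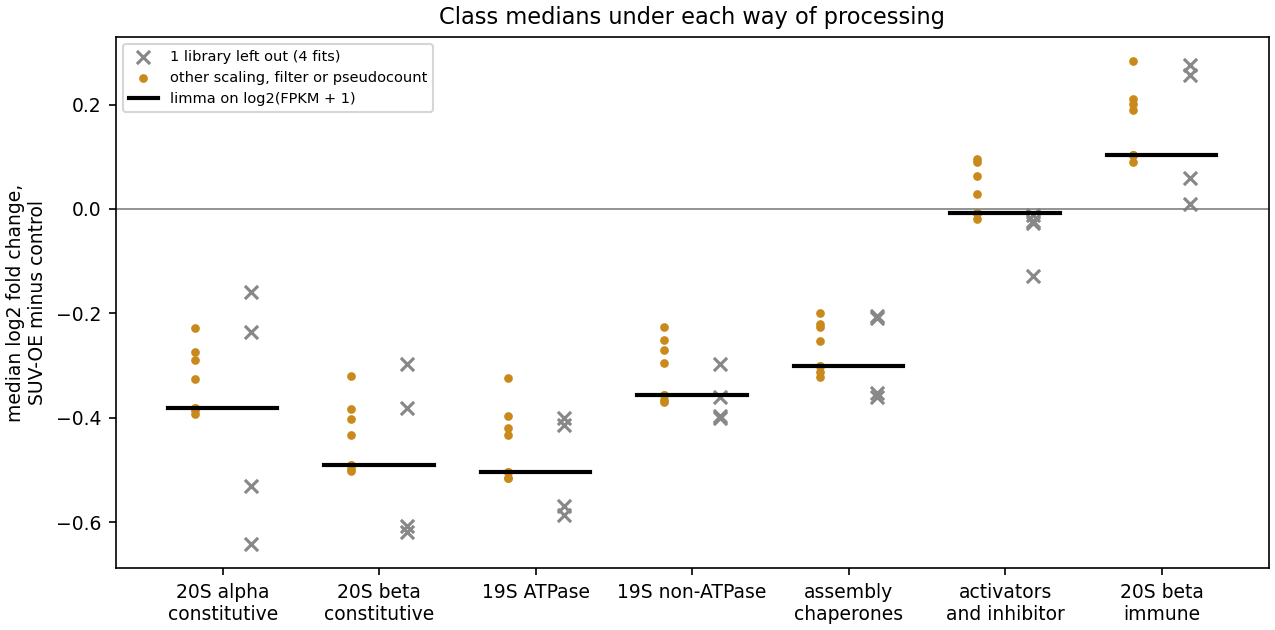
Median log2 fold change of each proteasome class, SUV-OE minus control (y axis), for the limma fit on log2(FPKM + 1) (black bar), for fits with another scaling, filter or pseudocount or on recovered reads (dots) and for the 4 fits with 1 library left out (crosses). The constitutive and assembly classes stay below 0 and the immune class above 0, and the alpha subunits have the widest range, from -0.64 to -0.16.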

How the data were processed

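RNA-Seq libraries had been prepared with an unstranded TruSeq v2 kit, and the submitters' notes name CASAVA 1.8, TopHat2 and mm10. The authors deposited FPKM values, computed with Cufflinks according to the paper's methods; the annotation release was not given in the sources used here. Symbols and positions came from GENCODE M21 (23438 of 23552 IDs matched). The proteasome genes and the lists were chosen with earlier results of these data known. FPKM was compared with limma 3.58.1 in R 4.3.3 (pseudocount 1, mean FPKM of at least 0.5, intensity trend, group as the only term). The study's count test was not used, since the unit was FPKM. For 78.5% of genes the 4 values were whole reads at the M21 exon length (tolerance 0.01), including 33 of the 50 members; the other 17 were whole at another length (tolerance 0.02). These reads entered limma-voom only. All 4 libraries were used and were labelled as RNA-seq batch 2.

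Genes named one by one were the immune and testis-type subunits, members with an unadjusted p-value under 0.05, the 3 most positive and 3 most negative, the highest and lowest of each class, untested members, and fixed genes and DEGs of the other lists; other names followed their values. Alternatives were a pseudocount of 0.1, other filters, quantile and median-of-ratios scaling, no or a robust trend, limma-voom and leaving out each library. Equal FPKM sums and removal of an exon length trend were added after the data were seen. The fit was also run on simulated reads, drawn with the same spread setting for every gene. Those reads held none of the differences in level or cell type between these libraries, so that run cannot show how the fit performs on them. Tabulation used Python 3.11.15, and figures matplotlib 3.10.9. Some genes of the lists are not reported here by name.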

Additional observations from a re-analysis of the deposited data

How the results depend on the processing

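The libraries were 2 against 2, and leaving out any 1 of them left 0 DEGs over the table, higher, lower or among the members. In those fits, where a lone library is assumed to vary like the other group, 1 to 27 members were lower (2.89% to 14.9% of all tested genes) and 0 or 1 higher (5.58% to 13.3%) at an unadjusted limma p-value under 0.05, 35 to 43 had SUV-OE wholly below control (36.4% to 43.7% of all tested genes) and 2 to 4 wholly above (33.0% to 40.3%), and the medians were -0.64 to -0.16 for the alpha subunits, -0.40 to -0.30 for the 19S non-ATPases and -0.13 to -0.012 for activators and the inhibitor. Without a filter on low values (23552 genes tested) there were also 0 DEGs, higher or lower, and 0 members past the adjusted threshold, with 4177 genes at an unadjusted p-value under 0.05. Psma8 then had an adjusted p-value of 0.111 and Ecpas of 0.111. DEGs numbered 168 (112 higher, 56 lower), 768 with limma-voom on recovered reads (630 higher, 138 lower), 235 with equal FPKM sums (188 higher) and 116 with a pseudocount of 0.1 (74 higher). With limma-voom the median of all genes was 0.08, a shift of 0.11.

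Members lower at an unadjusted p-value under 0.05 were 9 with equal FPKM sums and 11 with quantile normalization. Members with SUV-OE wholly above control were 3 with equal sums, quantile normalization or limma-voom, and 2 with the exon length trend removed. With equal sums, the length trend removed, limma-voom and quantile normalization, the 19S non-ATPase median was -0.25, -0.30, -0.27 and -0.23, and that of activators and the inhibitor 0.096, 0.029, 0.089 and 0.063. With quantile normalization the 19S ATPase median was -0.32 and the log2 ratio of Psmb9 to Psmb6 differed by 0.84. The causes of these shifts were not tested.

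Of 434 values of 31 named members, 424 kept their sign. The others were Psmb8 (-0.15 without control replicate 3, to 0.28 with another library left out), Psmb10 (-0.051 without SUV-OE replicate 3, to 0.26), Psme2 (-0.11 and -0.21 without SUV-OE replicate 3 and control replicate 3, to 0.28), Psmg4 (0.0058 with quantile normalization) and Psmg3 (0.070, 0.053 and 0.10 with equal sums, length trend and limma-voom, 0.054 and 0.25 without SUV-OE replicate 2 and control replicate 4, to -0.27). Of 266 values of 19 other genes, 260 kept their sign, and the rest were of Tap2 (0.073, 0.012, 0.062 and 0.12 with equal sums, length trend, limma-voom and quantile normalization, 0.054 and 0.030 without SUV-OE replicate 3 and control replicate 3, to -0.12). No paired analysis was possible because 3 is the one replicate number found in both groups.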

Other observations

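Subunits that sit once in each ring of the core differed widely in FPKM. Over the 4 libraries, the means of the 14 constitutive 20S genes ran from 24.9 (Psmb7) to 191.6 (Psma2), and those of the 17 cap genes from 15.5 (Psmd11) to 125.9 (Psmc1). Psmb7, the lowest of the core subunits, was also the one whose immune counterpart had the higher FPKM in every library, since the ratio of Psmb10 to Psmb7 was 1.90 or more throughout, where those of Psmb8 to Psmb5 and of Psmb9 to Psmb6 were below 1 in all 4 libraries. Shared sequence limits single levels: 23.7% of the 100-base words of Psma5, 22.2% of those of Psmb5 and 13.4% of those of Psma3 occur in another gene, mostly pseudogenes.

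Ubb, a gene of polyubiquitin, was singled out after its values were seen. It was at 491.8 and 442.2 FPKM in control against 329.0 and 366.6 in SUV-OE, groups that did not overlap (log2 fold change -0.42, limma adjusted p = 0.296).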
